A study of Mus musculus with 6 samples.

Results

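The genes described here are the parts list of chromosome duplication: the factors that mark and license replication origins, the helicase that unwinds DNA, the polymerases, the sliding clamp and its loader, the single-strand binding protein, the enzymes that join Okazaki fragments and those that supply deoxynucleotides. They were listed by symbol, with no threshold on measured values, though earlier results of these data were known when the list was made, and all 47 were found by Ensembl identifier among the 55335 genes of the count table. Poly(A)-selected RNA from wild-type mouse embryonic fibroblasts (MEFs) was sequenced in 2 groups. In Confine, cells were placed above a transwell membrane with 3 μm pores and those that had passed through were harvested after 15 h. Ctrl is the control group of the same cells, with no passage through pores in its labels. The labels name no agent or transgene for either group. The paper describes MEF culture with serum, but its transwell protocol, written for wider pores, seeds cells without serum above medium with serum. Whether the 3 μm passage followed that protocol is not stated, and the part of serum in the differences was not tested. Because the Confine cells were those that got through the pores, a response to confinement and a difference between migrating and non-migrating cells cannot be told apart.

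Each group has 3 labelled replicates, but the columns of Confine replicates 1 and 2 held identical counts for all 55335 genes, so they were counted as 1 library (the repeated library), leaving 3 Ctrl libraries against 2 Confine libraries. Libraries held between 22287210 and 32537550 counted reads, and single replication genes between 47 and 13162. The labels do not say whether replicates came from separate cultures, so p-values measure only the spread between these libraries, which may be technical. The labelled cell type was checked against marker genes. The fibroblast genes Col1a1, Col3a1, Vim, Fn1 and Pdgfra were expressed and called higher in Confine. Col1a2, Pdgfrb and S100a4 were expressed and not called (log2 fold changes 0.24, -0.36 and -0.28), the last 2 with both Confine libraries below every Ctrl library. Thy1 and Lum stood at 0.085 CPM (reads per 1e6 counted reads, normalized) or less in every library and Dcn between 0 and 0.912. In bulk RNA, fewer cells in S phase and less RNA per cell cannot be told apart.

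Replication starts in 2 steps that are kept apart in the cell cycle. In G1 the origin recognition complex (ORC), Cdc6 and Cdt1 load the ring of Mcm2 to Mcm7 onto DNA, while geminin (Gmnn) holds Cdt1 in check afterwards. In S phase the Cdc7-Dbf4 kinase, Mcm10, Cdc45 and the GINS complex turn the ring into an active helicase, and polymerase α-primase lays down the primers that polymerases δ and ε extend with the help of the clamp Pcna. Transcription of many of these genes is known to peak around the G1 to S transition and to depend on E2F factors, which bind short GC-rich elements in promoters.

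Such elements were visible in the promoters of several members, and a stretch around the match is shown for the called gene of each role with the strongest decrease that had a match before its start (0 in polymerases δ and ε, RPA and Okazaki joining, and deoxynucleotide supply). They show letters found in some members, which the rule did not use. The windows are the RefSeq sequences of mouse assembly GRCm38.p6, from 250 bases before to 50 bases after each RefSeq gene start. The stretches of Cdc6 and Gins3, and part of that of Rfc3, lie inside the gene span of the GENCODE annotation. Capitals mark the match, which was searched on both strands as TTTCCCGC or TTTCGCGC or TTTGCCGC or TTTGGCGC. Sequences run 5′ to 3′ on the gene's own strand.
Cdc6, origin licensing, chr11:98907983-98908050, plus strand: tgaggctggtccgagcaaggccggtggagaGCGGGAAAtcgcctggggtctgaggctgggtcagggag
Mcm5, MCM ring, chr8:75109326-75109397, plus strand: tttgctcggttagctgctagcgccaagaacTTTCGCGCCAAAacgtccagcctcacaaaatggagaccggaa
Gins3, helicase activation, chr8:95633488-95633555, plus strand: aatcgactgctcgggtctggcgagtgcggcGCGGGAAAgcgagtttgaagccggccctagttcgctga
Pola1, polymerase α, chrX:93632256-93632323, minus strand: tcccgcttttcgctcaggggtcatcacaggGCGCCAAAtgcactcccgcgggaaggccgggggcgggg
Rfc3, clamp loader, chr5:151651209-151651248, minus strand: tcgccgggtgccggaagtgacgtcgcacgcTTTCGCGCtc
Orc3, not called, shown for contrast and chosen after its values were seen, chr4:34614946-34615013, minus strand: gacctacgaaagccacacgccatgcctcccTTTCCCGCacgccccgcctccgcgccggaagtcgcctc

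In Mcm5 the capitals cover 2 matches on opposite strands that overlap. Of the 47 genes, 39 had a RefSeq window, and 15 of these 39 (38.5%) held at least 1 match, against 483 of 10303 tested genes with a window (4.69%) and 744 of all 32851 windows (2.26%). Among the members with a window, 13 of 33 called lower and 2 of 6 not called (Orc3 and Pold3) held a match. With only the bases before the gene start, 9 members did. The CCAAT box was found in 23 of 39 members (59.0%) against 43.1% of tested genes, and the cell cycle homology letters TTTGAA in 7 of 39 (17.9%) against 14.5%. A match describes the letters in these windows only and is not evidence that a factor binds there.

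Most of this gene set was expressed at a lower level in Confine, with genes of every role among them. A call here is a Benjamini-Hochberg adjusted p under 0.05 in edgeR's quasi-likelihood test over all 15881 genes with enough counts. All 47 members were tested. Of these, 40 were called lower and 0 higher, where 10.2% of all tested genes were called lower and 12.8% higher. The median log2 fold change of the members was -1.24 (range -2.10 to 0.08), beside -0.00 over all tested genes. With the study's further requirement that the change exceed 1.5 on the log2 scale, 16 members were called lower, against a background of 3.11% of tested genes. In 44 members both Confine libraries lay below all 3 Ctrl libraries, which held for 23.6% of tested genes, and in 36 members the Confine mean was under 50% of the Ctrl mean.

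Summed over the 47 genes, normalized expression was 4925, 4142 and 4047 CPM in Ctrl replicates 1 to 3, and 1748 and 1879 CPM in the repeated library and Confine replicate 3. The Confine sum was 41.5% of the Ctrl sum, and the groups were far apart relative to their spread (4370 ± 482, SD, n = 3, against 1810 ± 92.7, n = 2). Among the Ctrl libraries, replicate 1 gave the highest value for 38 members. An exact two-sided permutation test over 3 against 2 libraries cannot give less than p = 0.1 for a single gene, and 39 members reached that smallest value.

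**Figure D1:**
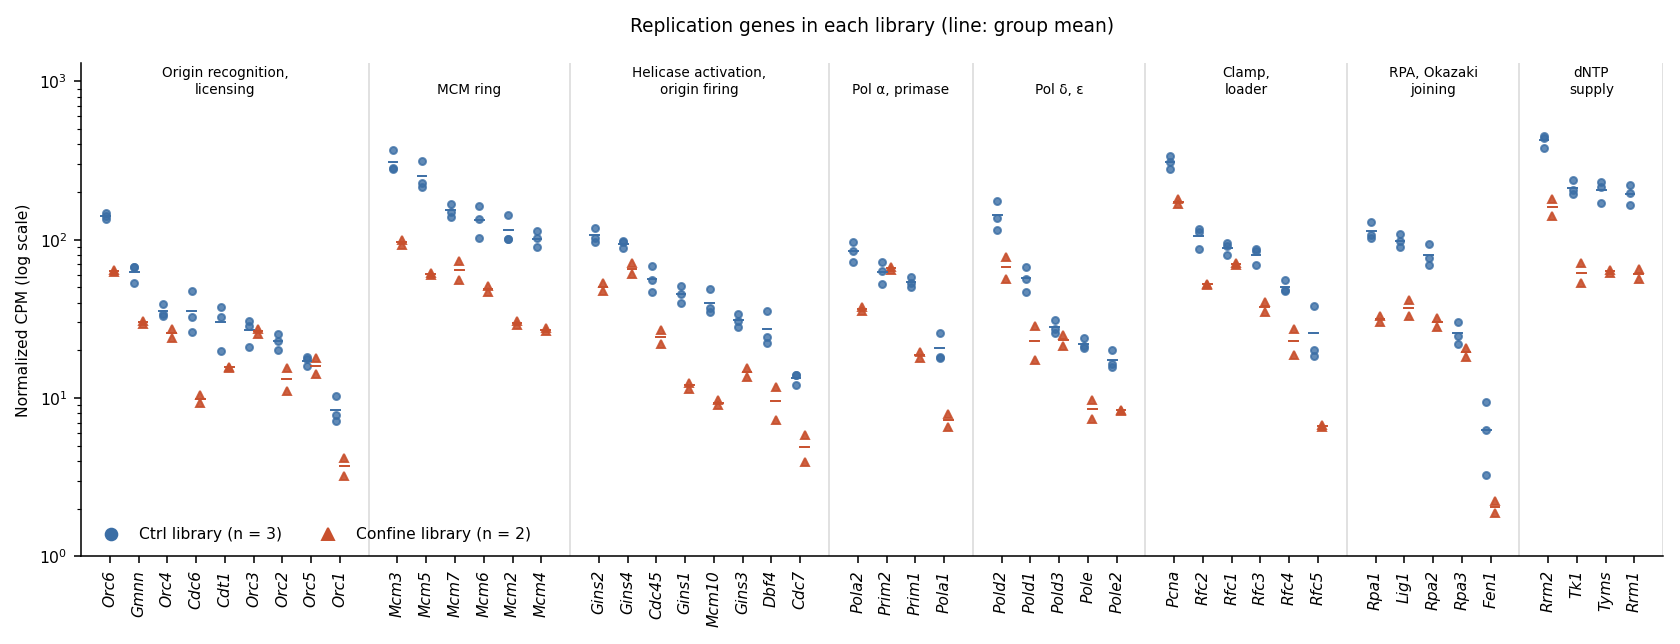
Normalized expression of each of the 47 replication genes in every library, in CPM on a log axis, grouped by role; circles are the 3 Ctrl libraries, triangles the 2 Confine libraries and short lines the group means. Triangles lie below all circles for 44 genes, and they mix with the circles for Orc3, Orc5 and Prim2.

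Origin recognition and licensing held the widest contrast between neighbours of the same process. ORC marks origins, and its partners Cdc6 and Cdt1 recruit the MCM ring. Of the 9 genes, 6 were called lower and 3 were not (Orc3, Orc4 and Orc5), with a median log2 fold change of -0.94. Cdc6, the ATPase that loads the ring together with ORC, stood at 47.3, 26.3 and 32.4 CPM in Ctrl and at 10.4 and 9.37 CPM in Confine. It was the licensing gene with the strongest decrease (log2 fold change -1.84, SE 0.24, adjusted p = 1.87e-05). Orc6 varied little within each group, at 142, 148 and 136 CPM in Ctrl and 62.5 and 64.2 CPM in Confine (log2 fold change -1.16, SE 0.18, adjusted p = 0.000104). Orc1, an ATPase subunit of ORC, went from 10.3, 7.79 and 7.14 CPM to 3.24 and 4.21 CPM (log2 fold change -1.18, SE 0.27, adjusted p = 0.00312). Its call was lost without the repeated library (adjusted p = 0.0697). The reads of Orc6 and Orc2 lie beside opposite-strand genes with more counts (Vps35 and Nif3l1), whose part was not tested.

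Cdt1 and its inhibitor geminin moved by similar amounts. Gmnn fell from 67.1, 67.1 and 53.2 CPM to 29.4 and 30.5 CPM (log2 fold change -1.06, SE 0.19, adjusted p = 0.000445), and Cdt1 from 32.7, 37.6 and 19.9 CPM to 15.5 and 15.8 CPM (-0.94, SE 0.24, adjusted p = 0.00708). Per kilobase of annotated exon, the ratio of Cdt1 to Gmnn was 0.227, 0.262 and 0.175 in Ctrl and 0.246 and 0.242 in Confine, so the groups overlapped. The Cdt1 call was lost when either Confine library was left out (adjusted p = 0.0897 without the repeated library and 0.0809 without replicate 3). Orc2 fell by 0.79 on the log2 scale (adjusted p = 0.0109), and its call was lost without Ctrl replicate 1 (0.0505) or without Confine replicate 3 (0.219).

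Orc3, Orc4 and Orc5, the remaining ORC subunits, were not called. Orc3 stood at 30.5, 21 and 28.7 CPM in Ctrl and 25.4 and 27.3 CPM in Confine, so the Confine libraries lay inside the Ctrl range (log2 fold change -0.02, 95% interval -0.44 to 0.40). For Orc5 the values were 18.2, 15.9 and 17.6 CPM against 18.0 and 14.1 CPM (-0.10, interval -0.52 to 0.32). Orc4 was lower in both Confine libraries, at 27.2 and 24.1 CPM against 33.1 to 39.5 CPM, without passing the threshold (-0.47, interval -0.86 to -0.07, adjusted p = 0.0837), and it was called without Ctrl replicate 2 (adjusted p = 0.0306). The intervals of Orc3 and Orc5 do not reach the Orc6 estimate of -1.16.

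The MCM ring was called lower in all 6 of its subunits, 4 of them past the 1.5 cutoff, with a median of -1.80. This ATPase ring is the motor of the replicative helicase. Mcm5 stood at 313, 215 and 227 CPM in Ctrl and 62.0 and 60.1 CPM in Confine, or 24.2% of the Ctrl mean (log2 fold change -2.04, SE 0.21, adjusted p = 1.14e-06). Mcm2 went from 143, 101 and 101 CPM to 30.5 and 28.9 CPM (-1.95, SE 0.21, adjusted p = 2.11e-06). The gap between the groups was much wider than the spread within either. Mcm4 fell from 113, 102 and 89.4 CPM to 26.4 and 27.6 CPM (-1.91, SE 0.20, adjusted p = 1.11e-06) and Mcm3, the most abundant subunit per kilobase, from 311 ± 50.7 to 96.1 ± 5.54 CPM (-1.69, adjusted p = 4.72e-06). Mcm6 went from 163, 136 and 103 CPM to 50.8 and 46.8 CPM (-1.46, adjusted p = 5.25e-05). Mcm7 went from 169, 149 and 140 CPM to 55.6 and 73.3 CPM (-1.24, adjusted p = 0.000119), the smallest estimate of the ring, and it overlaps Cops6 on the opposite strand, which had more counts. The summed ring mRNA was 1271, 981.5 and 945.4 CPM in Ctrl and 325.4 and 328.9 CPM in Confine, 30.7% of Ctrl.

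The subunits assemble in equal numbers, and their shares of the ring's mRNA per kilobase shifted somewhat. Mcm5 made up 25.9%, 23.1% and 25.2% in Ctrl and 20.1% and 19.3% in Confine, whereas Mcm7 made up 12.7%, 14.4% and 14% against 16.2% and 21.2%. These shares did not overlap between the groups, and neither did those of Mcm2 and Mcm4 (lower in Confine) and Mcm6 (higher). All were compared after the values were seen and were not tested. Mcm3 kept a similar share, between 31.5% and 34.5% in all 5 libraries.

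Helicase activation and origin firing was called lower in all 8 genes, 3 of them past the cutoff, with a median of -1.34. Mcm10, which helps the loaded ring to become an active helicase, had the strongest decrease of all 47 members: 48.6, 37.0 and 34.7 CPM in Ctrl against 9.70 and 9.01 CPM in Confine (log2 fold change -2.10, SE 0.22, adjusted p = 1.08e-06). Its gene lies on chromosome 2 at chr2:4989714-5012791 (GRCm38, minus strand). The kinase pair that fires origins decreased on both sides: Cdc7 from 14, 14 and 12 CPM to 3.92 and 5.84 CPM (-1.45, SE 0.24, adjusted p = 0.000219), and its activator Dbf4 from 24.2, 35.5 and 22.2 CPM to 7.26 and 11.8 CPM (-1.52, SE 0.26, adjusted p = 0.000222). Cdc45, which joins the ring and GINS in the active helicase, went from 68.4, 46.5 and 55.7 CPM to 26.7 and 21.8 CPM (-1.23, SE 0.21, adjusted p = 0.000251), although Ufd1 on the opposite strand shares its locus with more counts.

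The 4 GINS subunits form a single complex, yet their mRNAs did not change in step. Gins1 went from 50.9, 45.4 and 40.0 CPM to 12.5 and 11.4 CPM (log2 fold change -1.92, SE 0.20, adjusted p = 1.37e-06). Gins4 went from 98.7, 88.9 and 96.2 CPM to 60.6 and 70.8 CPM (-0.53, SE 0.18, adjusted p = 0.0436). Gins2 (-1.08, adjusted p = 0.000321) and Gins3 (-1.09, adjusted p = 0.000433) lay between them. The 95% intervals of Gins1 (-2.35 to -1.5) and Gins4 (-0.91 to -0.14) were apart. The Gins4 call was lost without Ctrl replicate 1 (adjusted p = 0.136), Ctrl replicate 3 (0.078), the repeated Confine library (0.315) or Confine replicate 3 (0.122), and with no filter on low counts (0.0516). The per-kilobase ratio of Gins4 to Gins1 was 2.18, 2.20 and 2.71 in Ctrl and 5.45 and 6.96 in Confine.

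**Figure D2:**
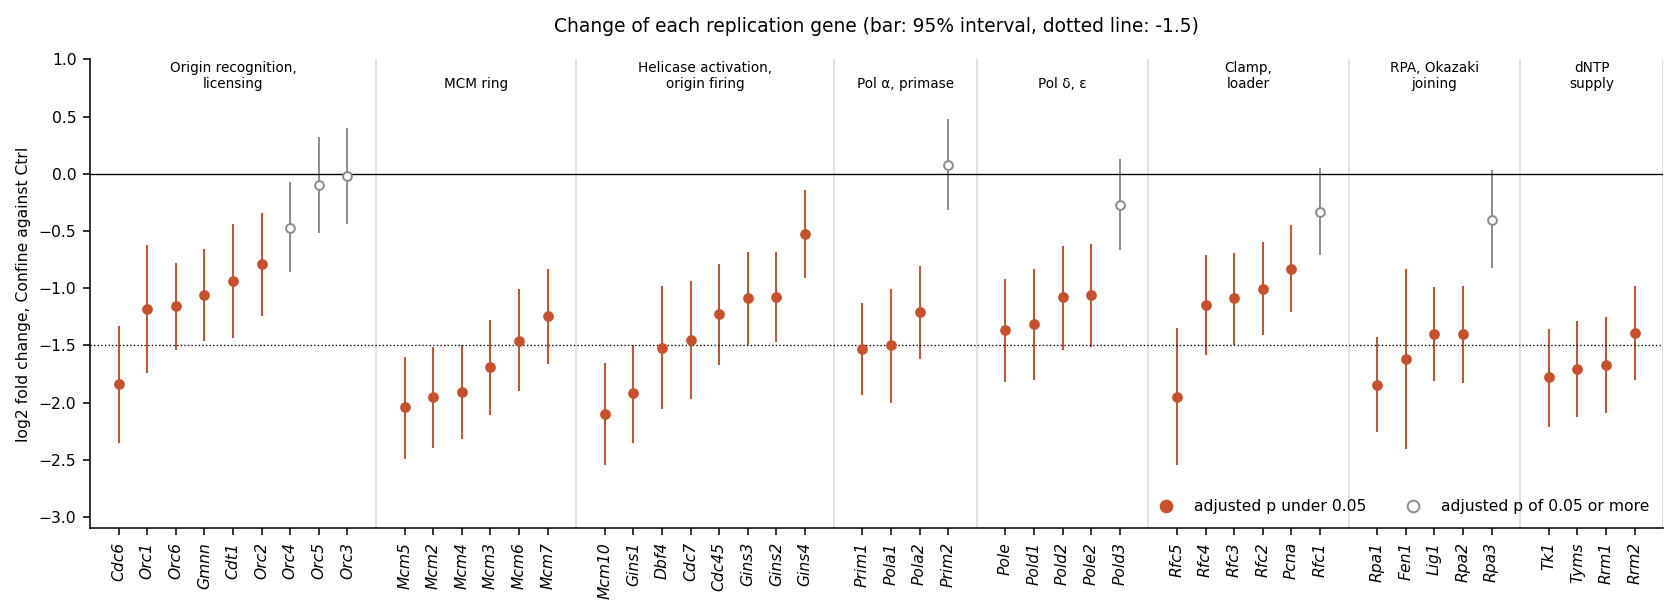
The log2 fold change of Confine against Ctrl for each replication gene, grouped by role, with 95% intervals from the edgeR fit as bars; filled points have an adjusted p under 0.05 and the dotted line marks -1.5. The 7 open points are Orc3, Orc4, Orc5, Prim2, Pold3, Rfc1 and Rpa3, and Prim2 at 0.08 is the one point above 0.

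Polymerase α-primase starts every new strand, with a primase pair that makes the RNA primer and a polymerase pair that extends it. Pola1, Pola2 and Prim1 were called lower and Prim2 was not. Prim1, the catalytic primase subunit, stood at 53.0, 50.5 and 57.8 CPM in Ctrl and 19.4 and 17.8 CPM in Confine (log2 fold change -1.53, SE 0.19, adjusted p = 9.31e-06). Pola1, the catalytic polymerase subunit, fell from 18.1, 25.8 and 17.8 CPM to 6.52 and 7.98 CPM (-1.5, SE 0.23, adjusted p = 0.000106), and Pola2 from 96.5, 72.5 and 84.5 CPM to 35.2 and 37.6 CPM (-1.21, SE 0.19, adjusted p = 0.000136).

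Prim2, the large primase subunit and partner of Prim1, was 72.4, 52.4 and 63.0 CPM in Ctrl (gene at chr1:33453810-33669795, GRCm38, minus strand) and 64.6 and 67.7 CPM in Confine. Both Confine libraries fell inside the Ctrl range (log2 fold change 0.08, 95% interval -0.32 to 0.48, adjusted p = 0.813). The ratio of Prim2 to Prim1 per kilobase was 0.890, 0.676 and 0.710 in Ctrl and 2.17 and 2.48 in Confine. Which partner was more abundant in Ctrl depends on the length correction, since without it Prim2 was the higher (mean 62.6 against 53.8 CPM). This pair and the other subunit pairs given as ratios were chosen after their values were seen, and the ratios were not tested.

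Polymerases δ and ε carry out the bulk of synthesis on the lagging and leading strands. The catalytic subunits both decreased: Pole from 23.9, 20.7 and 21.4 CPM to 7.37 and 9.65 CPM (log2 fold change -1.37, SE 0.21, adjusted p = 0.000105) and Pold1 from 67.2, 56.8 and 46.7 CPM to 17.4 and 28.5 CPM (-1.31, SE 0.23, adjusted p = 0.000354). Accessory subunits Pold2, at 176, 115 and 137 CPM in Ctrl and 56.4 and 78.3 CPM in Confine (-1.08, SE 0.22, adjusted p = 0.00114) and Pole2 (-1.06, SE 0.21, adjusted p = 0.00126) were also called lower, and 0 of the 5 genes passed the 1.5 cutoff. The Pold2 call was lost without the repeated Confine library (adjusted p = 0.0563). Pold3 was 31.1, 25.9 and 27.2 CPM in Ctrl and 25.1 and 21.4 CPM in Confine, a small separation that did not pass the test (-0.27, 95% interval -0.67 to 0.13, adjusted p = 0.343).

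The clamp and its loader were called lower in 5 of 6 genes, with a median of -1.05 and a range of -1.95 to -0.33. Pcna, the ring that tethers polymerases to DNA, was among the most abundant members and went from 338, 311 and 279 CPM to 181 and 167 CPM (log2 fold change -0.83, SE 0.18, adjusted p = 0.00243). Its Confine mean, 56.3% of Ctrl, was well above the 24.2% of Mcm5. In the loader RFC, the small subunits decreased: Rfc5 from 38.0, 18.5 and 20.2 CPM to 6.52 and 6.71 CPM (-1.95, SE 0.28, adjusted p = 5.22e-05), with Ctrl replicate 1 far above the other Ctrl libraries, Rfc4 from 55.7, 47.6 and 48.4 CPM to 18.6 and 27.1 CPM (-1.15, SE 0.21, adjusted p = 0.000411) and Rfc3 from 87, 69.5 and 84.3 CPM to 34.9 and 40.4 CPM (-1.09, SE 0.19, adjusted p = 0.000342). Rfc2 was also called lower (-1.01, adjusted p = 0.000742). Rfc5 overlaps Wsb2 and Rfc4 overlaps Eif4a2, in each case an opposite-strand gene with more counts. The large subunit Rfc1 was 91.7, 95.4 and 79.8 CPM in Ctrl and 71.7 and 69.6 CPM in Confine and was not called (-0.33, 95% interval -0.71 to 0.05, adjusted p = 0.206). Rfc1 overlaps Gm43628 on the same strand, which had 5741 counts over all libraries against 10928 for Rfc1, and the part of that gene was not tested.

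Single-strand binding protein RPA coats the unwound DNA, and Fen1 and Lig1 trim and seal Okazaki fragments. Rpa1, the large DNA-binding subunit, went from 130, 103 and 107 CPM to 30.1 and 32.8 CPM (log2 fold change -1.85, SE 0.20, adjusted p = 1.63e-06), and Rpa2 from 93.5, 76.1 and 68.8 CPM to 32.2 and 27.9 CPM (-1.40, SE 0.20, adjusted p = 4.32e-05). The smallest subunit Rpa3 stood at 21.8, 30.3 and 24.8 CPM in Ctrl and 18.2 and 20.8 CPM in Confine and was not called (-0.40, 95% interval -0.82 to 0.03, adjusted p = 0.174). Per kilobase, Rpa3 and Rpa1 had a ratio of 0.826, 1.44 and 1.14 in Ctrl and 2.98 and 3.11 in Confine. Lig1 went from 98, 108 and 89.5 CPM to 33.0 and 41.7 CPM and was called lower (-1.40, SE 0.20, adjusted p = 3.35e-05). Fen1, at 9.43, 3.25 and 6.25 CPM in Ctrl and 2.23 and 1.87 CPM in Confine, was also called lower (-1.62, SE 0.38, adjusted p = 0.0037), with several limits. It had 66 and 47 counts in Confine, it overlaps Tmem258, which had 26300 counts over all libraries against 619 for Fen1, and the antisense gene Gm10143 shares 1911 bp with it at 100% identity. Its call was lost without Confine replicate 3 (adjusted p = 0.0629).

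The 4 genes of deoxynucleotide supply were all called lower, 3 of them past the cutoff, with a median of -1.69. Ribonucleotide reductase makes deoxynucleotides from ribonucleotides, and its S-phase subunit Rrm2 was the most abundant member per kilobase in Ctrl. It went from 455, 441 and 381 CPM to 142 and 182 CPM (log2 fold change -1.39, SE 0.19, adjusted p = 3.18e-05). The large subunit Rrm1 went from 222, 196 and 165 CPM to 56.6 and 65.6 CPM (-1.67, SE 0.20, adjusted p = 5.76e-06). Thymidine nucleotides are supplied by thymidylate synthase (Tyms) and by thymidine kinase (Tk1). Tyms fell from 232, 171 and 216 CPM to 61.5 and 64.7 CPM (-1.71, SE 0.20, adjusted p = 4.26e-06) and Tk1 from 238, 194 and 207 CPM to 52.9 and 71 CPM (-1.78, SE 0.20, adjusted p = 3.47e-06). The summed level of the 4 was 1147, 1000 and 969.3 CPM in Ctrl and 313.4 and 383.4 CPM in Confine, 33.5% of Ctrl.

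Read together by complex, the 7 genes that were not called are single subunits of assemblies whose other subunits among the 47 were called lower, except in ORC, where 3 of 6 were not called. In Pol α-primase it was Prim2, in Pol δ Pold3, in RFC Rfc1 and in RPA Rpa3. Their estimates lay between -0.47 and 0.08, and whether each differed from its partners was not tested. The per-kilobase ratio of Orc3 to Orc1 was 1.69, 1.54 and 2.30 in Ctrl and 4.48 and 3.71 in Confine, and that of Rfc1 to Rfc4 was 0.419, 0.510 and 0.420 against 0.981 and 0.654. The ratio of Rrm2 to Rrm1, partners that were both called lower, moved less, from 8.15, 8.96 and 9.17 to 10.0 and 11.0.

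**Figure D3:**
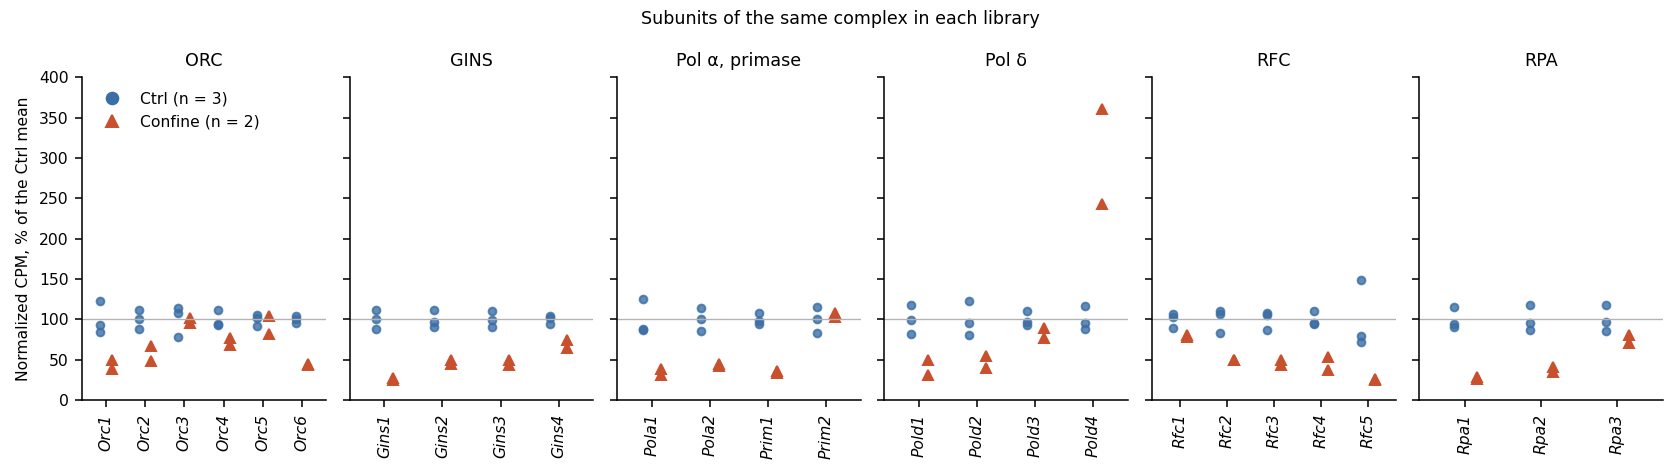
Subunits of 6 replication complexes in each library, as normalized CPM in percent of each gene's own Ctrl mean; circles are the 3 Ctrl libraries, triangles the 2 Confine libraries and the grey line marks the Ctrl mean. Prim2, Orc3 and Orc5 stay near the line, with other subunits of their complexes well under it. Pold4, which is not among the 47 genes, is the one subunit far above it.

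Levels between genes can be compared only per length, and the order depends on the length used. The merged exon length joins all annotated isoforms, so it can exceed that of the expressed transcript. It was 5198 bases for Tk1 and 6089 for Tyms, against 2771 for Rrm2, and which isoforms were expressed was not tested. On normalized CPM per kilobase of annotated exon, Rrm2 (164, 159 and 137) and Pcna (141, 129 and 116) were the most abundant members in Ctrl, followed by Mcm3 (98.4, 74.2 and 75.9) and Pold2 (92.7, 60.6 and 72.4). Rrm2 lay above Pcna in each Ctrl library, although their ranges overlapped, as did those of Mcm3 and Pold2. In Confine, Pcna (75.3 and 69.7) came before Rrm2 (51.4 and 65.7), and Gins4 (mean 48.7) stood above Pold2 (35.5), Orc6 (25.7) and Mcm3 (25.6). The lowest members in Ctrl were the long catalytic subunit gene Pole (2.14, 1.86 and 1.92) and Pola1 (mean 2.33).

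Most replication genes of a wider list were also called lower. This list of 52 such genes, made with earlier results of these data known, had 51 tested, of which 36 were called lower and 1 higher, with a median of -1.06. Among all tested genes, 10.2% were called lower and 12.8% higher, which is also the background for the smaller groups below. The strongest decreases were in Timeless (-1.95, SE 0.23), a fork protection factor, Dscc1 (-1.94, SE 0.22), a subunit of an alternative clamp loader, the clamp-binding protein Pclaf (-1.94, SE 0.20) and the helicase Recql4 (-1.92, SE 0.31). Pclaf stood at 191, 248 and 188 CPM in Ctrl and 51.0 and 58.2 CPM in Confine. Among genes called lower, those nearest to 0 were Samhd1 (-0.55, adjusted p = 0.0359), which degrades deoxynucleotides, the histone chaperone subunit Ssrp1 (-0.62, 0.0183) and Ctps (-0.63, 0.0268), a nucleotide synthesis enzyme. All 5 fork protection genes and all 5 tested genes of alternative clamp loaders and clamp partners were called lower, as were 7 of 8 chromatin assembly and methylation genes. Further nucleotide enzymes were called lower in 8 of 11, origin firing factors in 6 of 10, and Okazaki processing genes and topoisomerases in 4 of 7. The 5 further polymerase subunits had 1 called lower and 1 higher, with a median of -0.26 and a summed level of 122% of Ctrl. The higher sum rests on Pold4, with means of 48.2 CPM in Ctrl and 146 CPM in Confine, within sums of 214 and 261 CPM.

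Pold4, the smallest subunit of polymerase δ, was the exception and the one gene of the wider list called higher. It stood at 42.3, 46.1 and 56.4 CPM in Ctrl and 117 and 174 CPM in Confine (log2 fold change 1.59, SE 0.20, adjusted p = 1.17e-05). Both Confine libraries were above every Ctrl library. Per kilobase, the ratio of Pold4 to Pold1 was 2.62, 3.39 and 5.04 in Ctrl and 28.2 and 25.4 in Confine. Rrm2b, the form of the small reductase subunit used outside S phase, had an estimate of 0.51 (95% interval 0.01 to 1.02, adjusted p = 0.138) and was not called.

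**Figure D4:**
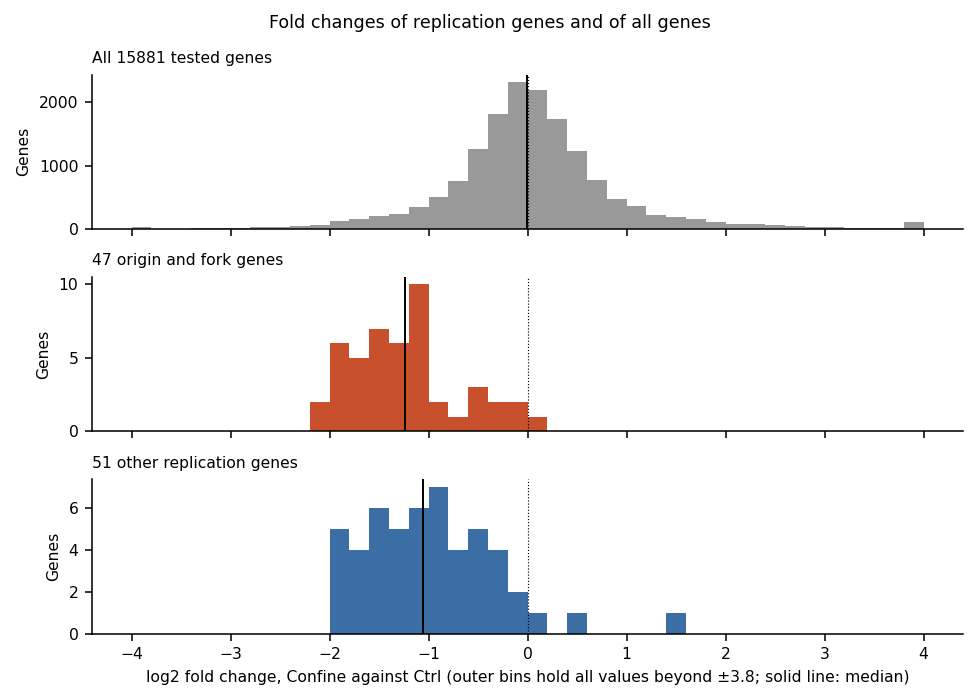
Number of genes at each log2 fold change of Confine against Ctrl, for all 15881 tested genes, the 47 origin and fork genes and the 51 tested genes of the wider replication list; solid lines mark the medians and the dotted line 0. The medians are -0.00, -1.24 and -1.06, and the isolated bar on the right of the lowest panel is Pold4.

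Genes of mitosis, which come after replication in the cycle, were also lower in a list of 14 chosen with earlier results known. All 14 were called lower, against 10.2% of all tested genes, with a median of -1.58. Their sum was 1762, 1452 and 1586 CPM in Ctrl against 441.2 and 651.1 CPM in Confine. Markers of other cell types summed to far less than the fibroblast markers. The 9 leukocyte markers summed to 7.612 to 8.499 CPM in Ctrl and 18.55 and 25.93 CPM in Confine, with 3 tested (Cd68 and Csf1r called higher, Lyz2 lower). Cd68 made up most of the Confine sum. It went from 2.35, 3.89 and 3.19 CPM in Ctrl to 16.6 and 23.3 CPM in Confine (log2 fold change 2.67, adjusted p = 3.94e-07). Lyz2 went from 5.25, 3.82 and 3.70 CPM to 0.574 and 0.794 CPM (-2.64, adjusted p = 3.53e-05). Adgre1 and Cd3e were at 0. Endothelial markers summed to at most 0.7181 CPM and epithelial ones to at most 0.675 CPM, with none tested. The fibroblast markers summed to 8745 to 9603 CPM in Ctrl and 15730 and 16510 CPM in Confine. Of the 8 tested, 5 were called higher and 0 lower, against 12.8% and 10.2% of all tested genes. The part of these shifts in the replication genes was not tested.

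The members are spread over 14 chromosomes, with 10 on chromosome 5 (21.3% of members, against 6.88% of tested genes): Cdc7, Dbf4, Mcm7, Orc5, Pole, Rfc1, Rfc2, Rfc3, Rfc5 and Tyms. These included called and uncalled genes. Reads can be shared with opposite-strand neighbours, since the strand setting of the counting is not given in the sources used here. Some members also overlap genes on the same strand, which no strand setting separates. The largest such neighbour was Gm43628, with 52.5% as many counts as Rfc1. Of the 47 genes, 25 had an overlapping gene with counts or a near-identical copy. Among the 22 with neither, 19 were called lower and 0 higher, against 10.2% and 12.8% of all tested genes, with a median of -1.42.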

How the data were processed

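RNA-seq libraries of 3 Ctrl and 3 Confine samples were analysed from raw gene counts deposited by the authors. Per the labels, reads were trimmed with Trim Galore 0.6.10, aligned with HISAT2 2.1.0 to mm10, handled with SAMtools 1.5 and counted with featureCounts; the strand setting, annotation and featureCounts version are not given in the sources used here. Groups follow the sample titles. Columns of Confine replicates 1 and 2 were identical and were used once.

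Counts were fitted with edgeR 4.0.16 (R 4.3.3; filterByExpr, TMM factors, quasi-likelihood test, Benjamini-Hochberg adjustment) over 15881 genes. CPM are TMM-normalized, and per-kilobase levels divide by merged exon length in GENCODE M21 (GRCm38). Intervals are 95% intervals of the fit. Overlaps came from the same annotation, and copies of at least 300 bp and 95% identity from blastn 2.17.0. Permutation tests used scipy 1.17.1. Reads carried no molecular identifiers. In simulated data 200 genes were set to change, and 15429 genes passed the filter. Of the changed genes that passed, 76.8% were recovered, and 3.25% of calls were false. The real data gave 3654 calls, so these rates need not hold there.

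The genes and lists were chosen with earlier results of these data known. Named genes were all 47 members and, in the wider list, the 4 lowest and the 4 highest estimates among called genes, with Rrm2b named after its values were seen. Alternatives were DESeq2 1.42.0, limma-voom 3.58.1, other scalings and filters, a replicate block and leaving out each library.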

Additional observations from a re-analysis of the deposited data

How the results depend on the processing

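The count of members called lower was 40 with DESeq2, limma-voom, RLE factors and a minimum of 10 counts in every library, 39 with no filter, and 43 with library size alone or with the identical columns as 2 samples, and 0 members were called higher in any of these. Library size alone moved the median of all genes by -0.21 and the member median to -1.45, with 2805 genes called lower and 1444 higher against 1619 and 2035. Leaving out 1 library gave 36 to 41 members called lower, a member median of -1.40 to -1.17 (-1.40 without Confine replicate 3) and 2054 to 4426 genes called in all against 3654 (2054 without Confine replicate 3, 2256 without the repeated library); a lone Confine library is then assumed to vary like Ctrl. Of the alternatives for single members, 628 kept direction and call, 14 lost the call, 8 gained it and 8 changed sign. Sign changes were confined to 3 genes with estimates near 0: Orc3 (0.10 with the replicate block as number 2, -0.17 to 0.081 over left-out libraries), Orc5 (-0.29 to 0.067) and Prim2 (-0.13 with library size alone, -0.031 with the replicate block as number 1, -0.038 to 0.19 over left-out libraries). Rfc1 and Rpa3 were called with library size alone (adjusted p = 0.0335 and 0.0368) and with the identical columns as 2 samples (0.0488 and 0.0467), as was Orc4 (0.0121 and 0.0205). With only the bases before the gene start, 9 members held an E2F-type match in place of 15.

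Replicate numbers are shared by the groups, but the repeated library could be number 1 or 2. Deviations of same-numbered libraries correlated at 0.052 with it as number 1 and -0.053 as number 2 over 15881 genes (0.091 and -0.108 over 10457 well-expressed genes), so the numbers were not taken as pairs. A replicate block gave 41 members called lower and 4933 genes in all as number 1 (Orc4 gained, adjusted p = 0.0179), and 38 and 2528 as number 2 (Orc2 and Gins4 lost, 0.0584 and 0.229). The lowest counts, and so the widest error from depth, were in Fen1 and Orc1.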
